A study of Homo sapiens with 6 samples.

Results

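Lysosomal gene expression is described here for 53 genes, picked by symbol from the 23354 genes of a read-count table because their products make up the lysosome. The genes encode 2 transcription factors of lysosomal genes, 8 lysosomal membrane proteins, 4 soluble cofactors of lysosomal enzymes or lipid transport, 30 hydrolases and 9 subunits or accessory proteins of the vacuolar proton pump (V-ATPase). RNA came from LNCaP, a human prostate cancer cell line that responds to androgen, grown with fetal bovine serum. In the DHT+WBM group, 3 libraries came from cells given 1 nM dihydrotestosterone (DHT, a potent androgen) together with an extract of white button mushroom (WBM, Agaricus bisporus) at 3 µL/mL. In the DHT group, 3 libraries came from cells given 1 nM DHT alone, and both treatments lasted 48 h. The labels name no vehicle for the DHT group and do not say whether the 3 libraries of a group came from separate cultures. The p-values therefore reflect spread among these libraries alone, and that spread may be technical. All results therefore describe added extract on a background of DHT in a single cell line.

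Library totals were 19127357 to 21490953 counts in DHT+WBM and 20304623 to 21219828 counts in DHT, and the 53 genes together took 182989 to 211700 and 158071 to 173551 of these counts. Luminal prostate markers marked the cells in both groups: KRT8, a luminal keratin gene, was at 297 to 304 CPM (counts scaled to library size) in DHT+WBM and 241 to 283 CPM in DHT and rose by 0.20 on the log2 scale. KLK3, the prostate-specific antigen gene, was at 611 to 623 CPM in DHT+WBM and 1596 to 1728 CPM in DHT, and its androgen-driven neighbour KLK2 was at 137 to 145 CPM in DHT+WBM and 314 to 349 CPM in DHT. They fell by 1.45 and 1.24 on the log2 scale. Summed over the 9 luminal markers, of which 1 rose, 5 fell and 3 did not pass, the level was 2926 to 3008 CPM in DHT+WBM against 4361 to 4572 CPM in DHT. Summed levels of the 3 basal epithelial markers stayed at or below 0.0975 CPM in DHT+WBM and 0.287 CPM in DHT, with KRT5 at 0 in all 6 libraries. The 4 fibroblast markers summed to 11.05 to 11.99 CPM in DHT+WBM and 9.997 to 11.51 CPM in DHT, nearly all of it COL1A1, and COL1A2 was at 0 throughout. Lysosomes degrade macromolecules in an acidic lumen and are present in every cell type, and secretory prostate cells also release an acid phosphatase.

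Lysosomal hydrolases are made in the endoplasmic reticulum, tagged with mannose 6-phosphate and carried to the lysosome, where the V-ATPase pumps in the protons they need. Membrane proteins shield the lysosomal membrane and move lipids, ions and amino acids across it. TFEB and TFE3 are related basic helix-loop-helix leucine zipper factors of the MiT family that switch on many lysosomal genes through an E-box known as the CLEAR element. Their activity is set largely by phosphorylation and entry into the nucleus, which RNA counts do not measure.

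Most of the called changes in these genes were modest rises. All 53 passed the low-count filter, and 31 were higher in DHT+WBM, 5 were lower and 17 did not pass the test (edgeR quasi-likelihood test, Benjamini-Hochberg adjusted p under 0.05). Over all 13466 genes tested, 58.2% were called, 29.2% as higher and 29.0% as lower. These shares are the background for each count of called genes by role or list given here. The share of the 53 genes called, 67.9%, is near that background, and it divides into 58.5% higher and 9.43% lower. The median log2 fold change of the 53 genes was 0.16, against 0.00 over all genes tested, and 47 of the 53 estimates were positive. In 37 genes the 3 libraries of each group did not overlap, 34 with DHT+WBM above DHT and 3 below, whereas 62.2% of all genes tested did not overlap, 31.1% in each direction. Only 4 of the 53, CD68, NEU1, TFEB and NPC1, were called with a change over 1.5-fold, and all were higher; 14.5% of all genes tested were called past that size. Summed over the 53 genes, the level was 9350, 9397 and 9748 CPM in DHT+WBM libraries and 8289, 7957 and 8188 CPM in DHT libraries, with no overlap. In bulk RNA, a change in the number of cells of a kind and a change in RNA per cell cannot be told apart. The plot of log2 fold changes by role shows the lean of each group of genes.

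**Figure D1:**
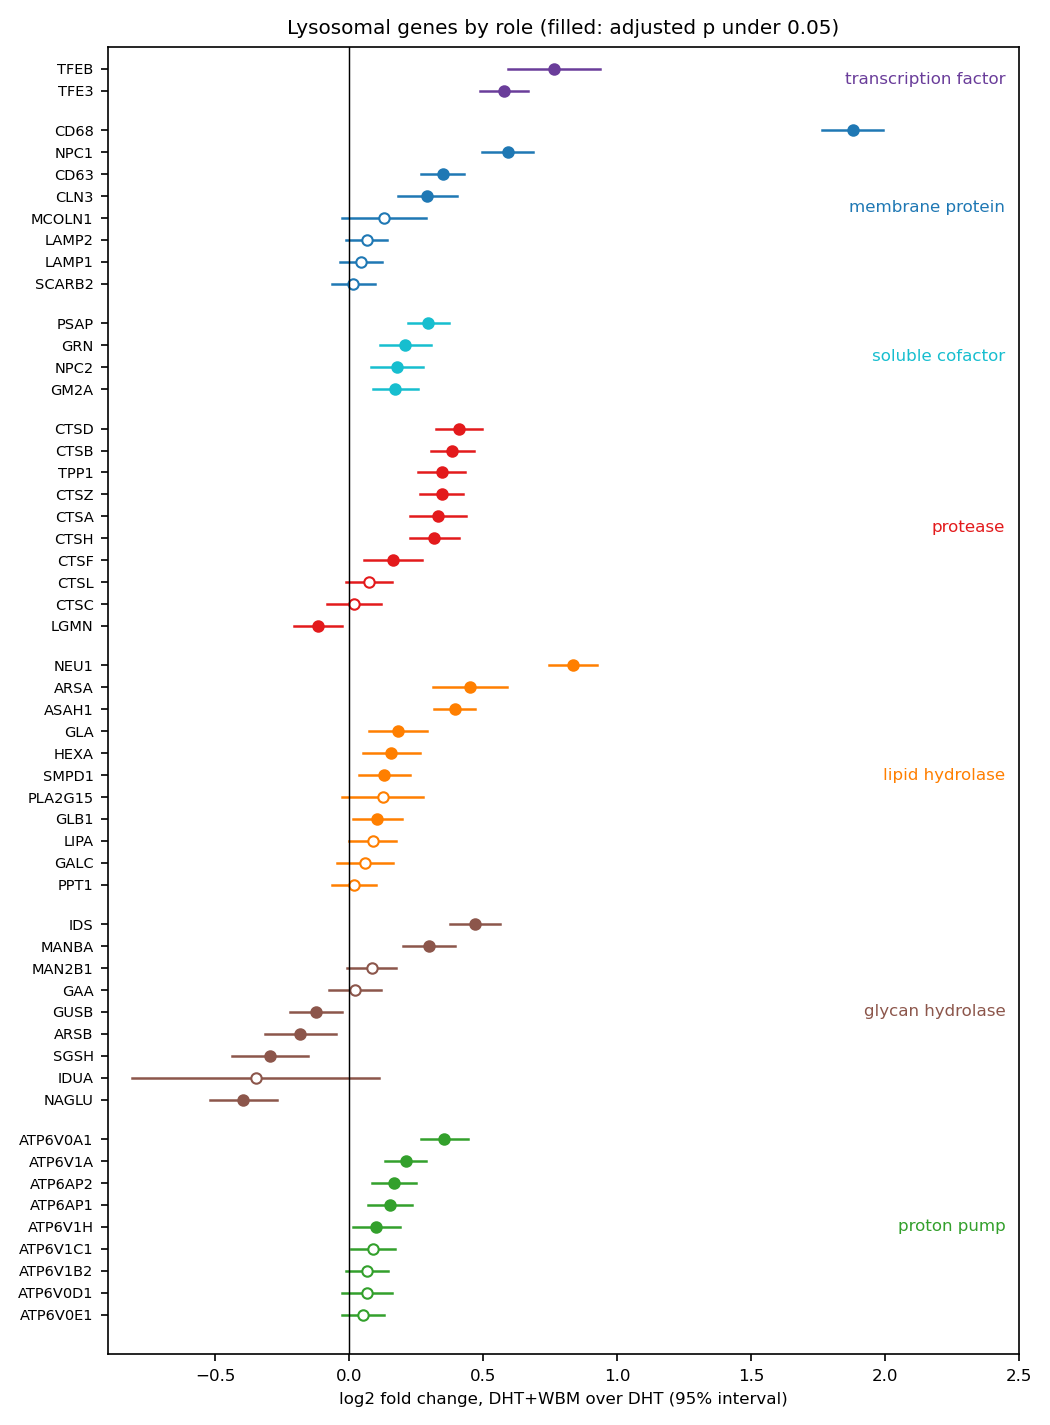
Log2 fold change (x axis, DHT+WBM over DHT) of each of the 53 genes, grouped by role down the page, with its 95% interval as a line; filled points passed an adjusted p of 0.05. CD68 stands farthest to the right at 1.88, and the points left of 0 belong to LGMN and to glycan hydrolases.

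Both transcription factor genes were higher with the extract. TFEB (chromosome 6, 41651716 to 41703997, minus strand, hg19) was at 14.8, 15.6 and 14.6 CPM in DHT+WBM and at 9.17, 8.10 and 9.17 CPM in DHT. The groups stood apart, with a log2 fold change of 0.77 ± 0.09 (SE, adjusted p by edgeR = 8.34e-10), a 1.70-fold rise. TFE3 (chromosome X, 48886242 to 48900990, minus strand) was at 96.6, 97.8 and 94.2 CPM in DHT+WBM and 63.4, 63.6 and 66.0 CPM in DHT, again with no overlap. The TFE3 log2 fold change was 0.58 ± 0.04 (adjusted p by edgeR = 3.72e-14), a 1.49-fold rise. Per kilobase of gene length, TFE3 was the more abundant of the pair, at 28.39 CPM per kilobase in DHT+WBM and 18.99 in DHT, against 2.80 and 1.64 for TFEB. MITF, a further factor of the family and best known from pigment cells, averaged 26.3 ± 0.548 CPM in DHT+WBM and 20.9 ± 0.657 CPM in DHT (SD, n = 3) and rose by a log2 fold change of 0.33. TFEC, the remaining member, stayed at or below 0.0975 CPM and was not tested.

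The MiT factors are held in check by nutrient sensing on the lysosomal surface. Of 16 genes of that control, MITF and TFEC included, 15 were tested, of which 6 rose, 1 fell and 8 did not pass, with a median log2 fold change of 0.05. The share called was 46.7%, against 58.2% of all genes tested. It divides into 40% higher and 6.67% lower, against 29.2% and 29.0% of all genes tested. RRAGD and RRAGB, which encode Rag GTPases that tether mTORC1 and MiT factors to the lysosome, rose by log2 fold changes of 0.41 ± 0.06 and 0.40 ± 0.07. RRAGD was at 36.90, 38.10 and 35.13 CPM in DHT+WBM and 27.75, 26.83 and 27.99 CPM in DHT. FNIP1, a partner of folliculin in the control of Rag GTPases, fell by 0.14 on the log2 scale, a call lost without DHT replicate 2 (-0.10) and with library totals in place of TMM scaling (-0.096). With library totals the list had 7 higher, MTOR included, and 0 lower. Folliculin itself (FLCN) did not pass, with a log2 fold change of -0.12, nor did the kinase gene MTOR under TMM scaling, at 0.05.

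Because MiT factors bind E-boxes, promoter sequence was examined for 38 of the 53 genes that matched a table of RefSeq promoters (GRCh38.p14, 250 bases before to 50 after the gene start). The searched motifs were the E-box CACGTG, the longer CLEAR core TCACGTGA that contains it, and the antioxidant response core TGACNNNGC, each on both strands. An E-box lay in 10 of the 38 promoters (26.3%) and in 7.43% of all 27305 promoters of the table. CLEAR cores lay in 6 (15.8%), against 1.04% of all promoters, and antioxidant cores in 13 (34.2%), against 13.6%. The promoters of the table include those of genes that did not pass the low-count filter here, whereas all 53 genes passed it. The promoters were not matched for expression or base content, and the differences in share were not tested. Of the 10 genes with an E-box, 6 rose, 0 fell and 4 were not called, while of the 28 without it 17 rose, 2 fell and 9 did not pass. NAGLU, SGSH and LGMN, which fell, had no matching promoter and were not searched. The same holds for ARSA, ASAH1, CTSB, HEXA, MANBA, PSAP, ATP6V1A and ATP6V1H, which rose. LAMP2, ATP6V0E1, ATP6V1B2 and ATP6V1C1, which did not pass, were also not searched. The median log2 fold change was 0.23 for the 10 genes with an E-box and 0.16 for the 28 without it. For the 6 genes with a CLEAR core the median was 0.10, and for the 32 without it 0.17. Of the 13 genes with an antioxidant core, 6 rose, 0 fell and 7 were not called, while of the 25 without it 17 rose, 2 fell and 6 did not pass. The medians were 0.07 with that core and 0.17 without it. CLN3 and CTSA, which hold a CLEAR core, rose, while ATP6V0D1, GAA, LAMP1 and MCOLN1, which also hold it, did not pass. A match is a run of letters and not a measured binding site.

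The promoters printed next were chosen to set E-box content beside response. Capitals mark the E-box, except in CD68, where they mark the antioxidant core. CTSA and LAMP1 also hold an antioxidant core, which begins 111 and 199 bases before the gene start and is not marked. CD68 (chr17:7579388-7579687, plus strand) showed the largest rise of the 53 genes and holds no E-box in this window. NEU1 (chr6:31862772-31863071, minus strand), CTSA (chr20:45891085-45891384, plus strand) and CLN3 (chr16:28492025-28492324, minus strand) rose and hold 1, 2 and 2 E-boxes. LAMP1 (chr13:113296989-113297288, plus strand) holds 6 and MCOLN1 (chr19:7522374-7522673, plus strand) holds 2, and neither gene passed the test in the fit of all 6 libraries. MCOLN1 was called higher without DHT replicate 1 (log2 fold change 0.20) and stood at 0.049 without DHT replicate 2. All are written 5′ to 3′ on the gene's strand.
CD68: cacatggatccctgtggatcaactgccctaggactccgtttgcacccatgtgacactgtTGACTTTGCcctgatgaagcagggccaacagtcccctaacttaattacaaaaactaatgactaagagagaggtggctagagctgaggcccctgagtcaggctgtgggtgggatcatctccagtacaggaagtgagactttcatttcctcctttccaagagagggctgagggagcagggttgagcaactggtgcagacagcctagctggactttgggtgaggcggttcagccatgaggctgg
NEU1: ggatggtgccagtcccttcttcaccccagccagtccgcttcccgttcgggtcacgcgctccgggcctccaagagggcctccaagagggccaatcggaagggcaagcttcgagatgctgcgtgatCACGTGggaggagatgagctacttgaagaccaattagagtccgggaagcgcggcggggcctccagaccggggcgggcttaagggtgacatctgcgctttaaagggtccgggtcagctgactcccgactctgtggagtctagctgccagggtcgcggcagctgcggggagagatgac
CTSA: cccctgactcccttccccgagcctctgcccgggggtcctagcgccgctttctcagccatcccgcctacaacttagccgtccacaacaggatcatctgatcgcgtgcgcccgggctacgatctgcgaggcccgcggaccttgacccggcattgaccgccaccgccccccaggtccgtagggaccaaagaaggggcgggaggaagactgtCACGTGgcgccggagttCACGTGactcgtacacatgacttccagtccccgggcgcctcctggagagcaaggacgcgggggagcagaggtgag
CLN3: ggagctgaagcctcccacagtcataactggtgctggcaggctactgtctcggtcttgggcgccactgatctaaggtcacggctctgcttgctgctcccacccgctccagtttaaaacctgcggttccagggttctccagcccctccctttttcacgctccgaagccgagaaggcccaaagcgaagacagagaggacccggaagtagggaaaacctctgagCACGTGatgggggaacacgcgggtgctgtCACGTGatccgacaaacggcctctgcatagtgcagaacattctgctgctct
LAMP1: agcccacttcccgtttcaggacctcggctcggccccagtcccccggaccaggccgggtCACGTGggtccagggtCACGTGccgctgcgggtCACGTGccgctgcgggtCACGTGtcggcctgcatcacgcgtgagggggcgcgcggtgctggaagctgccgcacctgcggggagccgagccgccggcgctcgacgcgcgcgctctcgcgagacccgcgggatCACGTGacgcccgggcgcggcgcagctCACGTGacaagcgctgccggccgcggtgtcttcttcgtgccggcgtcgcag
MCOLN1: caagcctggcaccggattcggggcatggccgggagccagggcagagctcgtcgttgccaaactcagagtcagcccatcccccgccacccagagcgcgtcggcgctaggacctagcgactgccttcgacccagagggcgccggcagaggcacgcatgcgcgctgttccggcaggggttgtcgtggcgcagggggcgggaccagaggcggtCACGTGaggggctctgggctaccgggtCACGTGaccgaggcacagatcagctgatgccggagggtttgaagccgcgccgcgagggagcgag
In LAMP1 the E-box nearest the gene start begins 1 base before it and the farthest begins 192 bases before it, and in NEU1 the single E-box begins 126 bases before the start. The antioxidant core of CD68 begins 191 bases before the start.

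Among the membrane proteins, 4 of 8 genes rose, 0 fell and 4 did not pass, with a median log2 fold change of 0.21. CD68 (chromosome 17, 7482805 to 7485429, plus strand), a heavily glycosylated protein of the lysosomal membrane used as a macrophage marker, was at 80.5, 83.4 and 89.6 CPM in DHT+WBM and at 23.7, 21.6 and 23.5 CPM in DHT. Every DHT+WBM library was thus above every DHT library, and the log2 fold change was 1.88 ± 0.06 (adjusted p by edgeR = 7.71e-27), a 3.68-fold rise. Other leukocyte markers were at or near 0: the 6 listed markers summed to 1.43 to 1.75 CPM in DHT+WBM and 0.780 to 0.906 CPM in DHT, with FCGR3A and MARCO at 0 in all 6 libraries, and PTPRC and CD14 at or below 0.0514 CPM. The 1 marker of the 6 that could be tested was ITGAM, an integrin subunit gene, which was at 1.56, 1.34 and 1.34 CPM in DHT+WBM and 0.621, 0.604 and 0.683 CPM in DHT and also rose (log2 fold change 1.14 ± 0.27, adjusted p by edgeR = 0.000369).

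NPC1 (chromosome 18, 21108363 to 21166581, minus strand), the membrane protein that exports cholesterol from lysosomes, was at 119, 121 and 125 CPM in DHT+WBM and 88.2, 75.4 and 78.5 CPM in DHT. The groups were well separated and the log2 fold change was 0.59 ± 0.05 (adjusted p by edgeR = 1.38e-13). C18orf8 lies across part of NPC1 on the opposite strand, with a mean count of 909 against 2077 for NPC1 and a log2 fold change of -0.01, so some reads could belong to either. CD63, a tetraspanin of late endosomes, lysosomes and exosomes, was at 505, 476 and 521 CPM in DHT+WBM and 387, 392 and 400.4 CPM in DHT, a log2 fold change of 0.35 ± 0.04 (adjusted p by edgeR = 8.44e-10). CLN3, a membrane protein lost in juvenile neuronal ceroid lipofuscinosis, averaged 43.6 ± 1.48 CPM in DHT+WBM and 35.6 ± 0.955 CPM in DHT and rose by a log2 fold change of 0.29. The main structural glycoproteins of the membrane gave no call, except that library totals called LAMP1 (log2 fold change 0.09) and LAMP2 (0.11) higher, and upper-quartile factors LAMP2 (0.098). LAMP1 was at 267, 267 and 271 CPM in DHT+WBM and 269, 253 and 259 CPM in DHT, with overlapping groups and a 95% interval of the log2 fold change of -0.03 to 0.12. LAMP2, the partner of LAMP1 that also serves chaperone-mediated autophagy, had an interval of -0.01 to 0.14, and SCARB2, the receptor that carries beta-glucocerebrosidase to lysosomes, one of -0.06 to 0.10. MCOLN1, the lysosomal calcium channel TRPML1, had an interval of -0.03 to 0.29 at a level of 14.5 to 18.9 CPM over the 6 libraries.

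**Figure D2:**
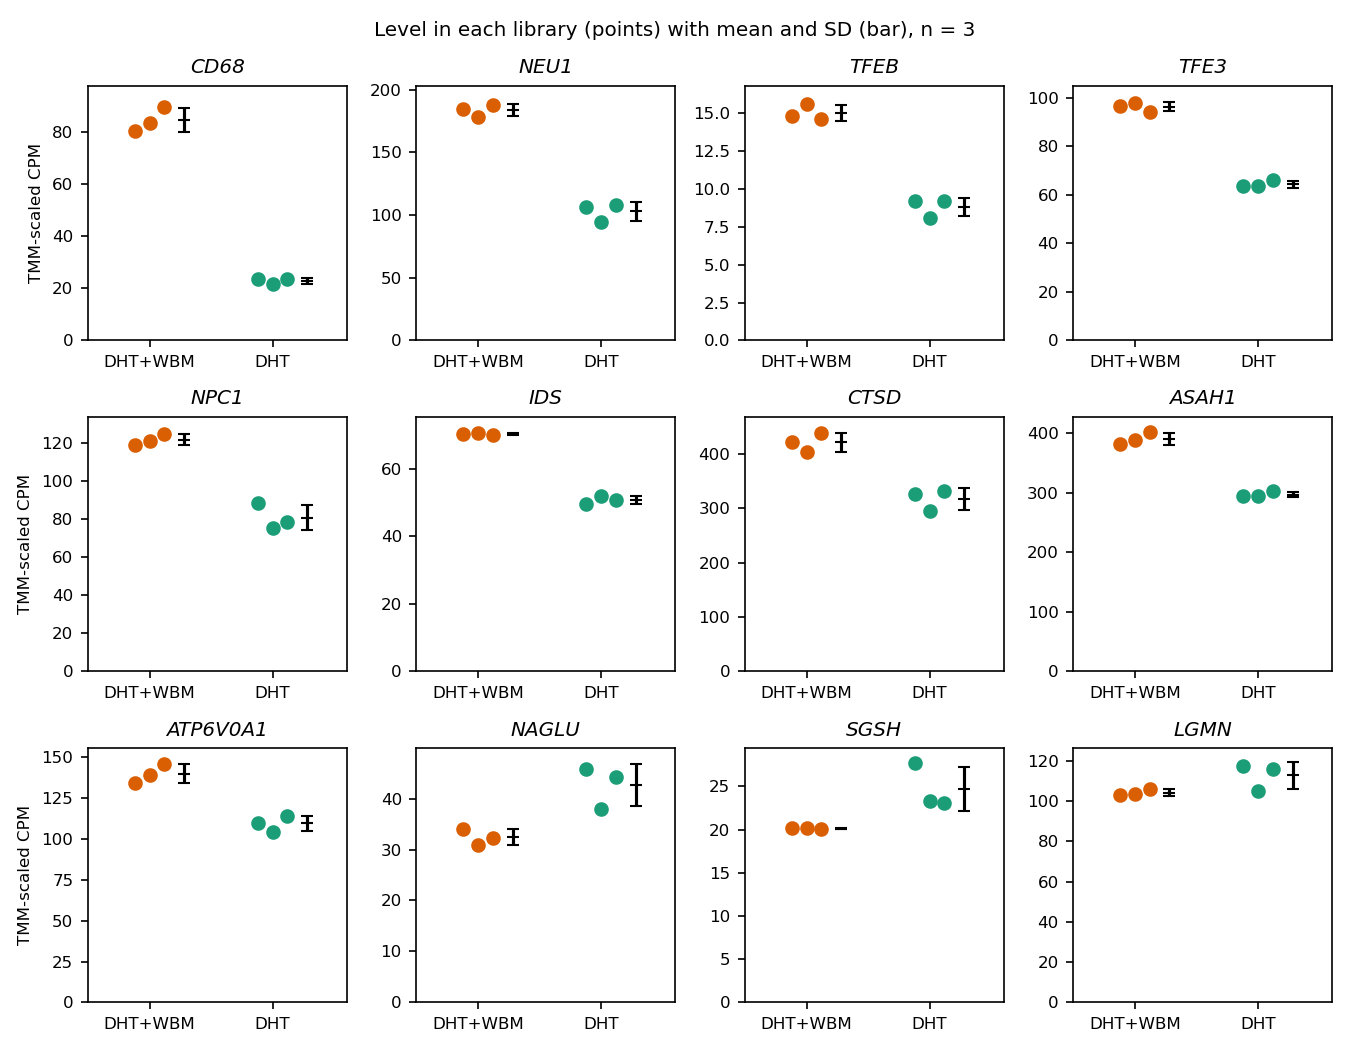
TMM-scaled CPM (y axes, from 0) of 12 genes in each library (points), with DHT+WBM left of DHT and the mean with its SD as a bar (n = 3). CD68 lies between 80.5 and 89.6 CPM in DHT+WBM and between 21.6 and 23.7 CPM in DHT, NAGLU and SGSH are lower in DHT+WBM, and the LGMN groups overlap.

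All 4 soluble cofactor genes rose, and their median log2 fold change was 0.19. PSAP, the precursor of the saposins that present sphingolipids to their hydrolases, had the highest level per kilobase of the 53 genes and was at 1803, 1815 and 1870.4 CPM in DHT+WBM and 1542, 1426 and 1503 CPM in DHT. Its groups did not overlap, with a log2 fold change of 0.30 ± 0.04 (adjusted p by edgeR = 1.97e-08). GRN, the progranulin gene, was at 114, 115 and 120.5 CPM in DHT+WBM and 105, 91.7 and 105 CPM in DHT, a log2 fold change of 0.21 ± 0.05 (adjusted p by edgeR = 0.000225). NPC2, the soluble protein that hands cholesterol to NPC1, was at 67.2, 67.1 and 70.5 CPM in DHT+WBM and 58.7, 58.9 and 63.5 CPM in DHT, a log2 fold change of 0.18 ± 0.05 (adjusted p by edgeR = 0.00161). Both groups stood apart for GRN and NPC2 as well. GM2A, the activator that lifts GM2 ganglioside out of the membrane, averaged 127 ± 4.88 CPM in DHT+WBM and 113 ± 0.321 CPM in DHT and rose by a log2 fold change of 0.17.

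Hydrolases were the largest role, with 16 of 30 genes higher, 5 lower and 9 not passing, and a median log2 fold change of 0.13. Upper-quartile factors gave 19 higher and 2 lower hydrolase genes, and library totals alone gave 20 and 2. Those scalings also moved the calls over all genes tested, to 32.9% higher and 25.3% lower with upper-quartile factors and to 34.7% and 23.8% with library totals. Of the 10 protease genes, 7 rose, 1 fell and 2 did not pass, with a median log2 fold change of 0.32, and under either of those scalings 8 rose and 0 fell. CTSD, the main lysosomal aspartic protease, was at 421, 403 and 438 CPM in DHT+WBM and 326, 294 and 331 CPM in DHT. The groups did not overlap and the log2 fold change was 0.41 ± 0.04 (adjusted p by edgeR = 1.07e-10). MOB2 is annotated across CTSD on the same strand but had a mean count of only 178 against 7572. CTSB, a cysteine protease, was at 227, 237 and 240.3 CPM in DHT+WBM and 186, 173 and 180.1 CPM in DHT, a log2 fold change of 0.39 ± 0.04 (adjusted p by edgeR = 1.06e-10). TPP1, a tripeptidyl peptidase, was at 213, 217 and 231 CPM in DHT+WBM and 182, 160.3 and 178 CPM in DHT, a log2 fold change of 0.35 ± 0.04 (adjusted p by edgeR = 1.18e-08). In both genes every DHT+WBM library was above every DHT library.

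The further protease rises were close in size. CTSZ, a carboxypeptidase, had a log2 fold change of 0.35, CTSA, the protective protein that also stabilises neuraminidase, 0.33, CTSH, an aminopeptidase, 0.32, and CTSF, a cysteine protease, 0.16. The CTSF call was lost without DHT+WBM replicate 3 (log2 fold change 0.14). LGMN, the asparaginyl endopeptidase that cleaves and activates cathepsins, was the exception, at 103, 104 and 106 CPM in DHT+WBM and 117, 105 and 116 CPM in DHT. Its groups overlapped and its log2 fold change was -0.11 ± 0.04 (adjusted p by edgeR = 0.0250). The LGMN call was lost when replicate 1 or 2 of DHT+WBM, or replicate 1 or 3 of DHT, was left out, with log2 fold changes from -0.12 to -0.086. It was lost also under upper-quartile factors (-0.083) and library totals (-0.068). CTSL, a potent endopeptidase, and CTSC, which activates serine proteases, did not pass, with log2 fold changes of 0.07 and 0.02.

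Lipid hydrolases leaned upward, with 7 of 11 genes higher, 0 lower and 4 not passing, and a median log2 fold change of 0.13. NEU1 (chromosome 6, 31826829 to 31830709, minus strand), the sialidase that trims gangliosides and glycoproteins, was at 184, 178 and 188 CPM in DHT+WBM and 106, 94.5 and 108 CPM in DHT. The groups lay far apart, and the log2 fold change of 0.83 ± 0.04 (adjusted p by edgeR = 8.01e-19) is a 1.78-fold rise. NEU1 was classed here with the lipid hydrolases although it also acts on glycoproteins. GLB1, a beta-galactosidase, and HEXA, a hexosaminidase subunit, were placed there too, and both were called higher. The counts and medians of lipid and glycan hydrolases depend on such placements. CTSA and GLB1, whose products sit with NEU1 in a multienzyme complex, rose by 0.33 ± 0.05 and 0.11 ± 0.05 on the log2 scale. ARSA, which desulfates sulfatide, was at 32.6, 33.6 and 34.2 CPM in DHT+WBM and 28.2, 21.6 and 23.6 CPM in DHT, a log2 fold change of 0.45 ± 0.07 (adjusted p by edgeR = 6.26e-07). ASAH1, the acid ceramidase gene, was at 381, 388 and 401 CPM in DHT+WBM and 294, 294 and 302 CPM in DHT, a log2 fold change of 0.39 ± 0.04 (adjusted p by edgeR = 1.72e-11). Neither ARSA nor ASAH1 showed overlap between the groups.

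Smaller rises were seen for GLA, the alpha-galactosidase of Fabry disease, at 0.18, HEXA, the alpha subunit of hexosaminidase, at 0.16, and SMPD1, the acid sphingomyelinase gene, at 0.13 on the log2 scale. The GLB1 call, for the beta-galactosidase that removes terminal galactose from GM1, was borderline (adjusted p by edgeR = 0.0468) and was lost without any 1 of the DHT+WBM libraries or without DHT replicate 2 or 3, with log2 fold changes from 0.079 to 0.12. Without DHT+WBM replicate 3 or DHT replicate 2 the SMPD1 call was also lost, with log2 fold changes of 0.090 and 0.082, and GLA and HEXA each lost theirs without 1 DHT+WBM library, replicate 3 for GLA (0.13) and replicate 1 for HEXA (0.13). Without DHT+WBM replicate 3 the lipid hydrolases thus had 4 rises in place of 7. LIPA, the acid lipase that frees cholesterol from lipoprotein esters, was at 107, 114 and 118 CPM in DHT+WBM and 108, 104 and 107 CPM in DHT, with a log2 fold change of 0.09 (adjusted p by edgeR = 0.0766). LIPA was called higher under upper-quartile factors, under library totals and without DHT+WBM replicate 1. The annotated span of LIPA holds IFIT1, IFIT2 and IFIT3 on the opposite strand, whose log2 fold changes were -2.99, -4.10 and -2.38. Since the strand setting of the counting is not given in the sources used here, the effect of those reads on LIPA was not tested. PLA2G15, a lysosomal phospholipase, GALC, the galactosylceramidase, and PPT1, a palmitoyl-protein thioesterase, did not pass, with log2 fold changes of 0.13, 0.06 and 0.02.

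Glycan hydrolases were split, with 2 of 9 genes higher, 4 lower and 3 not passing, and a median log2 fold change of -0.12. Upper-quartile factors and library totals each gave 3 higher and 2 lower. IDS, which removes sulfate from iduronic acid at the start of heparan and dermatan sulfate breakdown, was at 70.3, 70.7 and 70.0 CPM in DHT+WBM and 49.7, 51.9 and 50.8 CPM in DHT. The groups were tight and apart, with a log2 fold change of 0.47 ± 0.05 (adjusted p by edgeR = 5.25e-11). MANBA, a beta-mannosidase, was at 67.1, 66.2 and 70.5 CPM in DHT+WBM and 57.6, 55.4 and 53.0 CPM in DHT, a log2 fold change of 0.30 ± 0.05 (adjusted p by edgeR = 1.94e-06), again with no overlap.

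In the other direction, NAGLU, the N-acetylglucosaminidase of heparan sulfate breakdown, was at 34.1, 30.9 and 32.3 CPM in DHT+WBM and 45.8, 38.0 and 44.2 CPM in DHT. Every DHT+WBM library was below every DHT library, and the log2 fold change was -0.40 ± 0.06 (adjusted p by edgeR = 8.96e-07), a 1.32-fold fall. SGSH, the sulfamidase of the same pathway, was at 20.1, 20.1 and 20.1 CPM in DHT+WBM and 27.7, 23.4 and 23.0 CPM in DHT, a log2 fold change of -0.30 ± 0.07 (adjusted p by edgeR = 0.000468). ARSB, which desulfates dermatan and chondroitin sulfate, was at 22.67, 24.44 and 24.87 CPM in DHT+WBM and 24.98, 29.25 and 27.50 CPM in DHT, a log2 fold change of -0.18 ± 0.07 (adjusted p by edgeR = 0.0179). The nearest ARSB libraries of the groups differed by little, and its call was lost without DHT+WBM replicate 1 or DHT replicate 2, with log2 fold changes of -0.15 and -0.13. GUSB, the beta-glucuronidase gene, fell by 0.12 on the log2 scale with overlapping groups, and its call was lost without DHT+WBM replicate 2 (-0.085) or DHT replicate 1 (-0.097). Both ARSB and GUSB lost their calls also under upper-quartile factors, library totals and DESeq2. GUSB has transcribed pseudogenes in the table, of which GUSBP1 had the most reads at a mean count of 120.0 against 1559 for GUSB, so its value is uncertain. IDUA, the iduronidase gene, was at 1.197 to 1.489 CPM in DHT+WBM and 1.409 to 2.245 CPM in DHT and was not called (95% interval of the log2 fold change -0.81 to 0.11). Its span also overlaps SLC26A1 on the opposite strand. GAA, which degrades glycogen, and MAN2B1, an alpha-mannosidase, did not pass, at 0.02 and 0.08, though MAN2B1 was called higher without DHT replicate 1 (0.13).

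**Figure D3:**
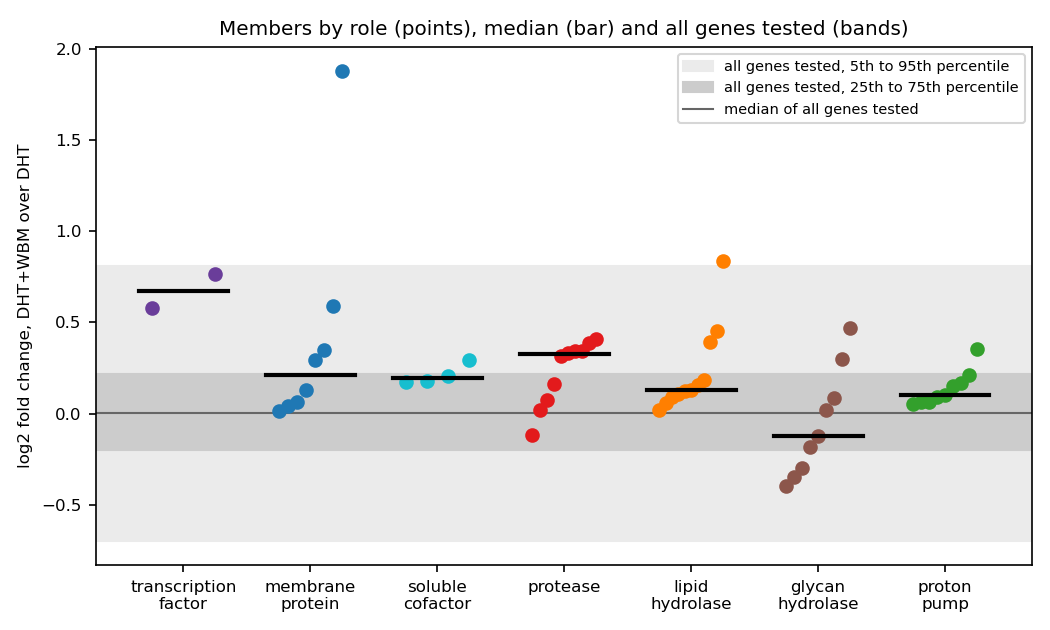
Log2 fold changes (y axis, DHT+WBM over DHT) of the 53 genes as points by role (x axis), with the median of each role as a black bar; grey bands span the 25th to 75th and 5th to 95th percentiles of all 13466 genes tested. Role medians run from -0.12 for glycan hydrolases to 0.67 for the transcription factors, and CD68 and NEU1 lie above the 95th percentile of 0.81.

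Sorting the enzymes by the polymer they degrade, an arrangement made after the values were seen and therefore given without a test, gave the following counts. For comparison, 29.2% of all genes tested were called higher and 29.0% lower. Of 7 heparan sulfate enzymes analysed here, 2 rose (IDS and HGSNAT), 4 fell (NAGLU, SGSH, GUSB and ARSG) and IDUA did not pass, with a median log2 fold change of -0.24. The count of falls was 2 under upper-quartile factors, library totals, DESeq2 and an adjusted p under 0.01, since the GUSB and ARSG calls were lost there. It was also 2 without DHT+WBM replicate 2 or DHT replicate 1, for the same reason. With a minimum change of 1.2-fold the count was 1, and without replicate 3 of either group it was 3. HGSNAT, the membrane acetyltransferase whose product NAGLU cleaves, averaged 185 ± 4.62 CPM in DHT+WBM and 143 ± 3.36 CPM in DHT, a log2 fold change of 0.37. Of 11 genes for sphingolipid enzymes and their activators analysed here, 10 rose, 0 fell and GALC did not pass, with a median log2 fold change of 0.18. The count of rises was 9 under RLE factors and DESeq2, 8 at an adjusted p under 0.01 and 3 with a minimum change of 1.2-fold. Leaving out 1 library gave 7 to 10 rises, the fewest without DHT+WBM replicate 3. Both arrangements include genes from outside the 53. On the cholesterol route NPC1 and NPC2 rose, and LIPA did not pass.

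The proton pump genes all had positive estimates, with 5 of 9 higher, 0 lower and 4 not passing, and a median log2 fold change of 0.10. Upper-quartile factors called 7 of the 9 higher and library totals all 9, beside the 32.9% and 34.7% of all genes called higher under them, and without DHT replicate 1 the median was 0.067. DESeq2, the fit with no low-count filter and an adjusted p under 0.01 each called 4 higher, and leaving out 1 library gave 4 or 6. The V-ATPase joins a membrane sector, V0, which conducts protons, to a cytosolic sector, V1, which hydrolyses ATP. ATP6V0A1, an isoform of the large V0 subunit a, was at 134, 139 and 146 CPM in DHT+WBM and 109.9, 104 and 114 CPM in DHT. Its groups did not overlap, with a log2 fold change of 0.35 ± 0.04 (adjusted p by edgeR = 6.28e-09). ATP6V1A, the catalytic subunit of V1, was at 432, 428 and 445 CPM in DHT+WBM and 373, 389 and 366 CPM in DHT, a log2 fold change of 0.21 ± 0.04 (adjusted p by edgeR = 1.07e-05). ATP6AP2, an accessory protein also known as the prorenin receptor, was at 217, 233 and 229 CPM in DHT+WBM and 206, 207 and 191 CPM in DHT, a log2 fold change of 0.17 ± 0.04 (adjusted p by edgeR = 0.000516). Both ATP6V1A and ATP6AP2 were separated between the groups.

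ATP6AP1, the other accessory protein, rose by 0.15 on the log2 scale, and ATP6V1H, a regulatory V1 subunit, by 0.10. The ATP6V1H call was lost without any 1 of the DHT+WBM libraries (log2 fold change 0.089 to 0.10) or without DHT replicate 1 (0.067). It was lost also under DESeq2 (0.10) and with no low-count filter (0.090). ATP6V1B2, the noncatalytic nucleotide-binding subunit, ATP6V1C1, a stalk subunit, ATP6V0D1, which couples the sectors, and ATP6V0E1, a small V0 subunit, did not pass, with log2 fold changes of 0.07, 0.09, 0.07 and 0.05. ATP6V1C1 was called higher without DHT replicate 2 (0.12), and ATP6V0D1 without DHT replicate 3 (0.13). Of the 15 further subunit genes listed, 12 were tested, of which 4 rose, 1 fell and 7 did not pass, with a median log2 fold change of 0.04. That is 41.7% called, against 58.2% of all genes tested. ATP6V0A2, the subunit a isoform known from Golgi and endosomes, was at 39.5, 42.6 and 44.4 CPM in DHT+WBM and 52.4, 51.4 and 52.5 CPM in DHT. It was the only one of the 21 tested pump genes, those of the 53 included, that fell (log2 fold change -0.30 ± 0.05, adjusted p by edgeR = 5.28e-06), while ATP6V0A1 rose. Per kilobase, ATP6V0A1 made up 81.0%, 80.4% and 80.4% of the sum of these 2 isoforms in DHT+WBM and 72.4%, 71.8% and 73.1% in DHT, a description made after their values were seen. ATP6V0A4, the kidney isoform, rose by 0.83 ± 0.25 at 1.38 to 1.80 CPM in DHT+WBM and 0.731 to 1.15 CPM in DHT, and ATP6V1E2, a V1 stalk isoform known from testis, rose by 0.41 ± 0.10.

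**Figure D4:**
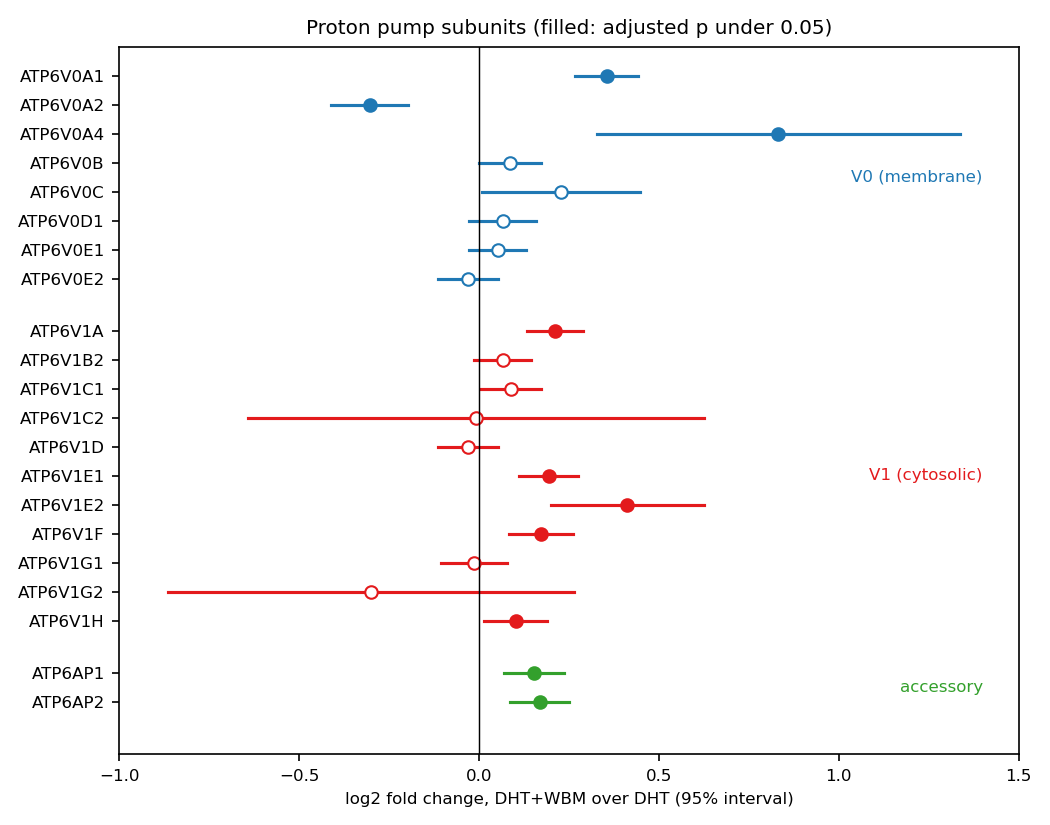
Log2 fold change (x axis, DHT+WBM over DHT) with 95% interval of the 21 tested V-ATPase genes, members and further subunits, arranged by sector; filled points passed an adjusted p of 0.05. ATP6V0A1 and ATP6V0A2 lie on opposite sides of 0, at 0.35 and -0.30.

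Lysosomal genes outside the 53 gave a comparison by function. Of 30 further hydrolases and activators analysed here, 26 were tested, of which 14 rose, 1 fell and 11 did not pass, with a median log2 fold change of 0.18. The share called, 57.7%, is near the 58.2% of all genes tested. It divides into 53.8% higher and 3.85% lower, against 29.2% and 29.0% of all genes tested. CTSS, a cysteine protease best known from antigen-presenting cells, was at 6.73, 5.75 and 7.05 CPM in DHT+WBM and 3.34, 3.12 and 2.88 CPM in DHT, a log2 fold change of 1.07 ± 0.13. FUCA1, an alpha-fucosidase, averaged 49.0 ± 0.508 CPM in DHT+WBM and 33.8 ± 1.12 CPM in DHT, a log2 fold change of 0.54 ± 0.05. The single gene of that list that fell was the sulfatase ARSG, with a log2 fold change of -0.24 ± 0.09 and overlapping groups. Its call was lost without DHT+WBM replicate 2 (-0.21) or 3 (-0.23), without DHT replicate 1 (-0.16) or 3 (-0.23), and under upper-quartile factors, library totals and DESeq2, which leaves 0 lower genes in that list. Without DHT replicate 2 the list had 2 lower genes, with RNASET2 added. Of the further membrane proteins, 9 of 23 tested genes were higher, 4 lower and 10 did not pass, with a median log2 fold change of 0.00. Their share called, 56.5%, is near the 58.2% of all genes tested and is not read as a trait of the list. LAMP3, among the higher genes, passed the low-count filter only through the DHT+WBM libraries. LAPTM4B, a transmembrane protein of late endosomes and lysosomes, was at 136 ± 6.68 CPM in DHT+WBM and 95.2 ± 2.74 CPM in DHT, a log2 fold change of 0.52 ± 0.04. PQLC2, a cationic amino acid exporter, and SIDT2, a lysosomal membrane protein, fell by 0.35 and 0.27 on the log2 scale. Without DHT replicate 1 or 3 the list had 2 lower genes in place of 4, and the PQLC2 call was lost in both cases (-0.28).

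Genes that tag and deliver the hydrolases showed little common movement. Of 13 tested, 4 rose, 2 fell and 7 did not pass, with a median log2 fold change of 0.02, while upper-quartile factors gave 4 and 1, and library totals 5 and 1. Under TMM scaling 46.2% of the list was called, against 58.2% of all genes tested. Only 2 rose and 1 fell without DHT+WBM replicate 3, and 2 rose and 2 fell without DHT replicate 2. GGA1, a Golgi adaptor that sorts mannose 6-phosphate receptors, rose by 0.31 ± 0.06, and GNPTAB, which makes the mannose 6-phosphate tag, by 0.15 ± 0.04 on the log2 scale. AP3D1, an adaptor subunit, and GGA3, a relative of GGA1, fell by 0.17 and 0.15. The GGA3 call was lost without DHT+WBM replicate 3 (-0.12) or DHT replicate 1 (-0.099), and under upper-quartile factors, library totals and DESeq2. The receptors themselves, M6PR and IGF2R, did not pass, with log2 fold changes of 0.02 and 0.08, though IGF2R was called higher without DHT replicate 1 (0.18) and under library totals (0.13). Whether the roles differed from each other was not tested.

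The highest and lowest levels per kilobase belonged to the same genes in both groups. The median of the 53 genes was 35.4 CPM per kilobase in DHT+WBM and 31.8 in DHT. PSAP was highest, at 652 in DHT+WBM and 531 in DHT, followed by ATP6V0E1 at 259 and 250.2, CD63 at 244 and 192 and CTSD at 199 and 149.8. ATP6V0E1, CD63 and CTSD sit in the same order in both groups. IDUA was lowest, at 0.559 in DHT+WBM and 0.708 in DHT, and TFEB came next. CD68 stood at 45.7 in DHT+WBM and 12.4 in DHT, the farthest of the 53 genes from equal levels.

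**Figure D5:**
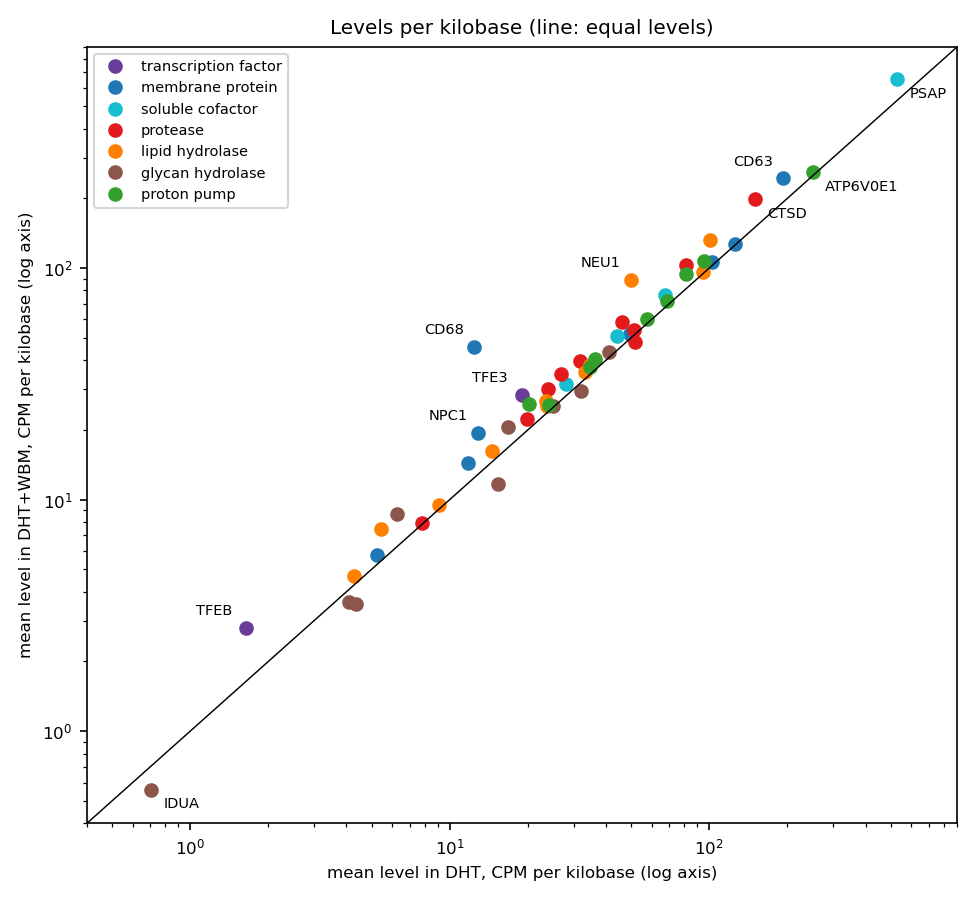
Mean level in CPM per kilobase of gene length in DHT+WBM (y axis) against DHT (x axis), both log axes, 1 point per gene coloured by role, with a line at equal levels. CD68 and NEU1 lie well above the line, and IDUA is at the bottom left.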

How the data were processed

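The table deposited by the authors holds unnormalised whole-number counts for each gene beside its position and length. The submitters' processing notes name STAR 2.6.0, bcl2fastq 2.18.0.12, edgeR 3.28.1, HTSeq 0.6.0 and hg19, without roles; for the annotation and strand setting, the answer is not given in the sources used here. Sample titles tied columns to libraries.

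The fit used edgeR 4.0.16 in R 4.3.3. After filterByExpr (minimum count 10, minimum total 15) 13466 genes remained; TMM factors ran from 0.979 to 1.02, and DHT+WBM was set against DHT by the quasi-likelihood F-test, with no covariate. P-values were adjusted by Benjamini-Hochberg over all genes tested. Levels are TMM-scaled CPM, and log2 fold changes carry standard errors (SE) and 95% intervals. The fit was tested on simulated counts. Total counts limit precision for genes near 1 CPM.

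The genes, roles and lists were chosen with earlier results of these data known, and some genes are not reported here. Described with every library were TFEB, TFE3 and up to 3 called genes with the largest rise and 3 with the largest fall per role, with hydrolases taken by class, and up to 2 each way per further list with means or fold changes; other genes are given as counts, ranges or exceptions. Alternatives were RLE, upper-quartile and total scaling, other filters, DESeq2 1.42.0, limma-voom (limma 3.58.1), a threshold of 0.01 on the adjusted p, glmTreat at 1.2-fold, the replicate number as a block and each library left out. Libraries of a group differed by more than sampling noise (chi-square per degree of freedom 1.70 to 1.97 in DHT+WBM and 3.60 to 4.15 in DHT), so none was merged as a repeat of another; this does not show that they were separate cultures.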

Additional observations from a re-analysis of the deposited data

How the results depend on the processing

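No called gene among the 53 changed sign under any alternative run, and no scaling moved the median of all genes by more than 0.05 (log2). Counts of called genes, 31 higher and 5 lower, were 14 and 1 with a minimum change of 1.2-fold, where all genes gave 1603 higher and 1476 lower against 3928 and 3909. The count of lower genes was 2 under upper-quartile factors, library totals or an adjusted p under 0.01, and 3 with DESeq2; with library totals the medians were 0.20 for all 53 genes, 0.17 for hydrolases, 0.26 for membrane proteins, 0.24 for cofactors and 0.15 for the pump, which was at 0.13 under upper-quartile factors. These scalings raise all estimates by a shared amount; the cause of the other differences was not tested. Library totals gained 10 single-gene calls and upper-quartile factors 6, all higher. Leaving out each library gave 26 to 32 higher and 3 to 5 lower genes, with medians of 0.17 to 0.25 for membrane proteins and 0.067 to 0.13 for the pump. Over the 53 genes and all these settings, 763 refits kept their side of the threshold, 63 lost a call and 22 gained one. Same-numbered libraries did not pair (correlations 0.05, 0.04 and 0.02 of their deviations; 3 of 6 libraries matched best with their own number); with the replicate number as a block, 32 genes were higher and 5 lower. Counts over all genes, refits of genes not chosen by the naming rule and those of the further lists were added after the data were seen. Depth limits IDUA, LAMP3, ATP6V0A4 and ITGAM, which had under 50 counts per library.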

Other observations

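Among the lysosomal membrane genes outside the 53, LAMP3, a relative of LAMP1 known from mature dendritic cells and from interferon and hypoxia responses, was at 1.66, 1.03 and 1.15 CPM in DHT+WBM and 0.430, 0.201 and 0.244 CPM in DHT. Its log2 fold change was 2.10 ± 0.35, with 4 to 9 counts per DHT library, under the filter's minimum count of 10. LAMP3 thus entered the test only through the DHT+WBM libraries, where it was high, so no p-value is given for it. TPCN1, a cation channel of endosomes and lysosomes, rose by 0.34, while its relative TPCN2 did not pass, at -0.08. OSTM1 and CLCN7, which together form the lysosomal chloride-proton exchanger, rose by 0.27 and 0.17 on the log2 scale. CLCN7 was at 41.4, 40.4 and 40.5 CPM in DHT+WBM and 39.8, 30.6 and 38.2 CPM in DHT, and its call was lost without DHT+WBM replicate 1 (0.15) or 3 (0.17) or DHT replicate 2 (0.062). SLC17A5, which exports the sialic acid that NEU1 releases, was at 50.6, 53.5 and 52.3 CPM in DHT+WBM and 40.1, 43.0 and 41.2 CPM in DHT, with no overlap and a log2 fold change of 0.33. Apart from LAMP3, these genes were named after their values were seen.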
